A study of Mus musculus with 6 samples.

Results

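The genes described here are 44 cell cycle and DNA replication genes of cultured mouse microglia, compared between Plcg2-/- and Plcg2+/+ libraries. They were chosen by name from a roster of symbols, and all 44 were found among the 54347 gene rows of the deposited table. By textbook role, 9 regulate the G1 phase, 16 act in DNA replication or entry into it (G1/S) and 19 act in mitosis (G2/M). Of the 44 genes, 42 had a mean of at least 1 TPM (a transcript abundance scaled for length and to the same total in each library) over the 6 libraries and were tested. Cdc6 and Cenpf did not, and are given by their values.

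The RNA came from cultured microglia, macrophages that live in the brain, of C57BL/6 mice. There were 3 Plcg2-/- libraries and 3 Plcg2+/+ libraries, both from littermate pups 2 to 3 days old. Mixed glial cultures in 10% serum and 5 ng/mL of GM-CSF, a growth factor of myeloid cells, gave microglia on day 12 to 13, and these were kept a further 72 h or more in 1% serum with 0.5 ng/mL GM-CSF. Both genotypes therefore received GM-CSF throughout. The sources used here do not name the deleted part of Plcg2, nor do they state that replicates were separate animals or cultures, so the p-values cover the spread between these samples alone, which may be technical. Libraries are named by genotype and by the replicate number of their titles.

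A cell that is to divide passes from G1, where D-type cyclins with the kinases Cdk4 and Cdk6 relieve the retinoblastoma proteins' hold on E2F factors, into S phase, where the MCM helicase opens the DNA and new strands are copied. Cdk1 with the A and B cyclins then drives mitosis, in which the spindle, centromeres and the anaphase-promoting complex separate the chromosomes. E2F sites are typical of promoters of replication genes, and the CHR element with CCAAT boxes is typical of promoters of mitosis genes, where the DREAM complex represses them in resting cells. Microglia in culture divide in response to colony-stimulating factors such as GM-CSF.

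Plcg2 itself, which encodes phospholipase C gamma 2, had 16.05, 16.7 and 16.1 TPM in the Plcg2-/- libraries, against 45.2, 39.7 and 54.9 TPM in the Plcg2+/+ libraries, so every library stood on the side of its label. Pan-macrophage markers were abundant in both genotypes. Tyrobp, a microglial signalling adaptor, had 2419 to 2704 TPM in Plcg2-/- libraries, against 1619 to 2119 TPM in Plcg2+/+ libraries. Of the 14 tested microglia and macrophage markers, 5 were called higher in Plcg2-/- libraries (Aif1, P2ry12, C1qc, Fcrls and Spi1) and 3 lower (Cx3cr1, Itgam and Trem2). The homeostatic markers among them thus stood on both sides, with Cx3cr1 at no more than 0.330 TPM in Plcg2-/- libraries, against up to 2.93 TPM in Plcg2+/+ libraries, and P2ry12 at 18.9 to 27.7 TPM in Plcg2-/- libraries, against 2.20 to 9.29 TPM in Plcg2+/+ libraries. Mitochondrially encoded transcripts took 5.00% to 8.68% of TPM in Plcg2-/- libraries and 13.6% to 17.3% in Plcg2+/+ libraries. Y-linked transcripts summed to over 50 TPM in Plcg2-/- 1, Plcg2+/+ 2 and Plcg2+/+ 3 and to under 1 TPM in the other 3 libraries. Sequencing depth is unknown, since TPM does not keep it. In bulk RNA, fewer cycling cells and less RNA per cycling cell cannot be told apart.

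The promoters of the set show the division into replication and mitosis genes that the comparison rests on. RefSeq windows (GRCm38.p6) from 250 bases before to 50 after a start were held for 36 of the 44 genes, 40 windows in all; Aurkb, Ccna2, Ccnd1, Ccnd2, Ccne2, Gins2, Mcm4 and Tpx2 had none in the table used. Stretches from 140 bases before to 25 bases after the start are shown for 3 mitosis genes and 2 replication genes, read 5′ to 3′ along the gene. Cenpa (chr5:30666746-30666910, plus strand), Ube2c (chr2:164769789-164769953, plus strand) and Top2a (chr11:99024165-99024329, minus strand) are shown as examples of a CHR close to the start. Other mitosis genes had a CHR closer to it, such as Cenpf at 2 and Ccnb2 at 4 bases after the start. Rrm1 (chr7:102441555-102441719, plus strand) and Mcm6 (chr1:128359681-128359845, minus strand) are shown for their E2F matches. Capitals mark matches to the CHR core TTTGAA, to the CCAAT box, or to any of 4 spellings of an E2F site, namely TTCCCGC or else TTGGCGC or else TTCGCGC or else TTGCCGC. Both strands were searched, so that TTCAAA and also ATTGG appear.
Cenpa: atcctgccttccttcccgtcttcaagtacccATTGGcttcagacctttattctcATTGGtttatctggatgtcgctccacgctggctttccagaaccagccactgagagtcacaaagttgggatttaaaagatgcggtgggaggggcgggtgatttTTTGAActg
Ube2c: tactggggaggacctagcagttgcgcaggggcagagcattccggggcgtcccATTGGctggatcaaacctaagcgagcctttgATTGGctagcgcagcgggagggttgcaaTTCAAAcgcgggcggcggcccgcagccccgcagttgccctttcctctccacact
Top2a: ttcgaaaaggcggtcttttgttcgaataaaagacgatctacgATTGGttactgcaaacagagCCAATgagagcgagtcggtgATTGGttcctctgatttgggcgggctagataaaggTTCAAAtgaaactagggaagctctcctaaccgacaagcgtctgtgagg
Rrm1: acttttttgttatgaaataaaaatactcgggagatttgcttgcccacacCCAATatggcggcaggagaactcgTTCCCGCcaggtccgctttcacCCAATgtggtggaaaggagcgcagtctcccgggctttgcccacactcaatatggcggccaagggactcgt
Mcm6: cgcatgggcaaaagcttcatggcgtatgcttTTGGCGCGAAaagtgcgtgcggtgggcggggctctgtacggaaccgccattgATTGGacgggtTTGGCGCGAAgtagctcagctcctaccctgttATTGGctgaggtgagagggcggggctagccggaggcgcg

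In Ube2c the CHR begins 29 bases before the start and in Top2a 23 bases before it, and in both a CCAAT box stands 57 or 58 bases before the start. In Cenpa the CHR begins 16 bases after the start. Mcm6 carries 2 E2F matches that each read on both strands and overlap, and thus count as 4. Over the windows of the whole set, TTTGAA was present in 12 of 16 mitosis windows (75%), 1 of 14 replication windows (7.14%, that of Mcm2) and 0 of 10 windows of G1 regulators, against 17.9% of all 32851 RefSeq windows of this length. E2F letters were present in 3 mitosis windows (18.8%), 9 replication windows (64.3%) and 2 windows of G1 regulators (20%), against 9.57% of all windows. CCAAT was present in 14 mitosis windows (87.5%), 9 replication windows (64.3%) and 4 windows of G1 regulators (40%), against 37.4% of all windows. A match of letters is a description and not a shown binding site.

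**Figure D1:**
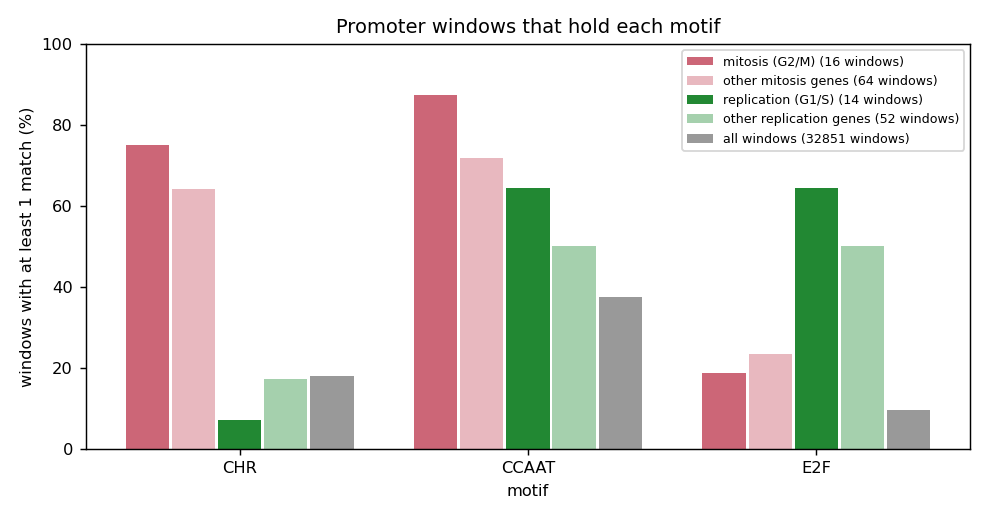
Share of promoter windows (percent, y axis) that hold at least 1 match to the CHR core, CCAAT or the E2F letters (x axis), for mitosis genes, replication genes, 2 further lists of mitosis and replication genes outside the set, and all 32851 windows. The CHR bar is tall for the mitosis genes (75%) and low for the replication genes (7.14%), while the E2F bars stand the other way round (18.8% and 64.3%).

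Few of the 42 tested genes passed the test for a difference between the genotypes. Ccnd3 rose and Gins2 and Cenpa fell in Plcg2-/- microglia, each with an adjusted p below 0.05 (limma, Benjamini-Hochberg over all 12652 genes tested). At an unadjusted p below 0.05, 4 of the 42 genes were higher and 3 lower, against 3604 higher and 1155 lower of all 12652 genes. After adjustment 1 of 42 was called higher, where 15.6% of all genes tested were. Called lower were 2 of 42, where 5.31% of all genes were. With the replicate number as a block in the model, 4 of 42 were called higher (Ccnd1, Ccnd3, Cdkn1a and Aurkb) against 19.6% of all genes. With it, 6 of 42 were called lower (Gins2, Rrm1, Rrm2, Cenpa, Birc5 and Ube2c) against 6.44% of all genes. The labels do not state that the numbers pair the libraries, and the pairing was read from these same values. All 3 Plcg2-/- values lay above all 3 Plcg2+/+ values for 3 of 42 genes, against 32.4% of all genes, and below them for 5 of 42, against 10.9% of all genes.

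The 3 roles differed in where their fold changes lay. The median log2 fold change of log2(TPM + 1), Plcg2-/- over Plcg2+/+, was 0.23 for the 9 G1 regulators, -0.10 for the 15 tested replication genes and -0.44 for the 18 tested mitosis genes, beside 0.19 for all genes tested. The shift of all genes disappeared after median-of-ratios scaling (median -0.0045, with 975 genes called higher and 993 lower, in place of 1971 and 672), under which the 3 medians were 0.021, -0.29 and -0.61. The median of the G1 regulators was -0.019 after quantile normalization, so its sign depended on the scaling, whereas those of the replication and mitosis genes were negative under every scaling tried. Values lay below the median of all genes for 3 of 9 G1 regulators, 14 of 15 replication genes and 16 of 18 mitosis genes. Single libraries moved the medians: leaving out Plcg2-/- 2 gave -0.19 for the mitosis genes and -0.040 for the replication genes, leaving out Plcg2-/- 3 gave -0.68 and -0.18, and leaving out Plcg2+/+ 3 gave -0.21 and -0.041. The median of the replication genes was -0.19 when Plcg2+/+ 1 was left out. The median of the G1 regulators was 0.11 without Plcg2+/+ 2. Among genes with a mean of at least 5 TPM, the medians of the replication and mitosis genes were -0.0115 and -0.289. That of all such genes was 0.233. These counts and medians describe the lists and carry no test.

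**Figure D2:**
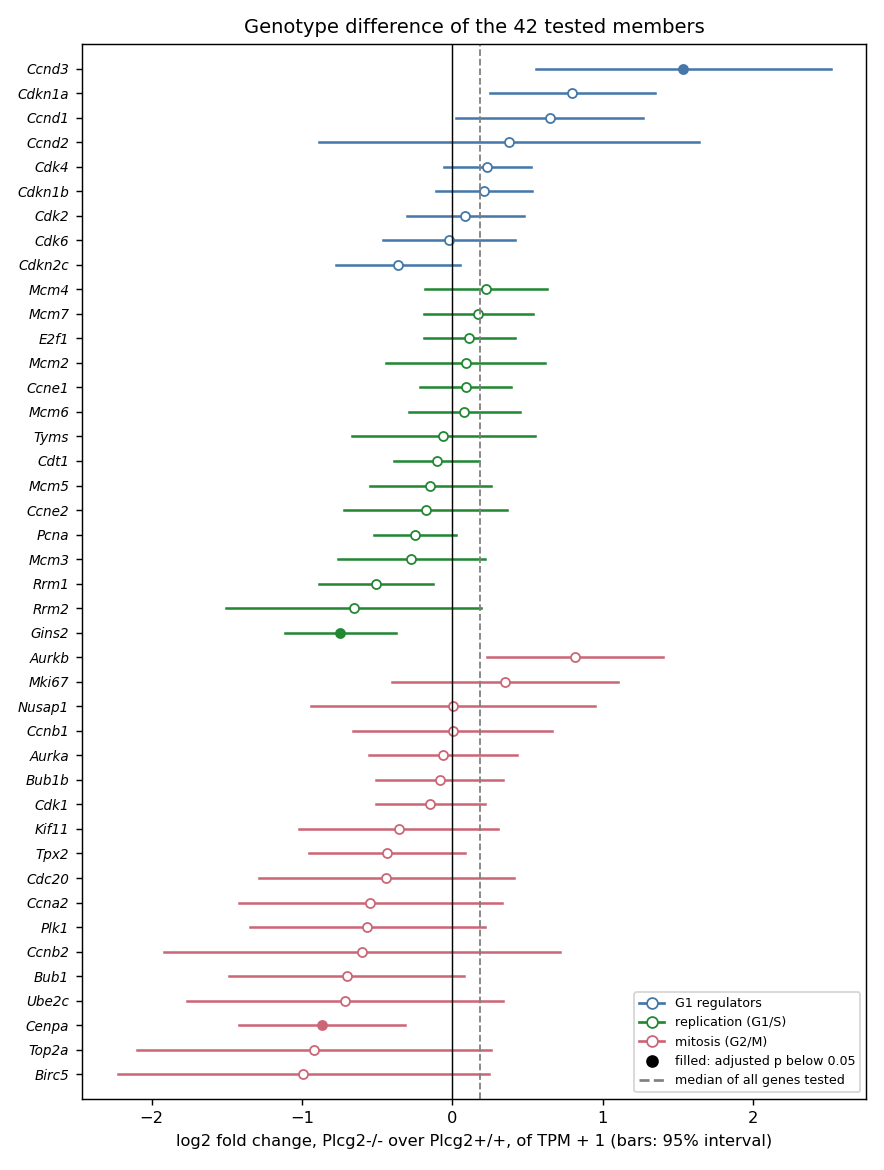
Log2 fold change of each of the 42 tested genes (x axis, from log2(TPM + 1), Plcg2-/- over Plcg2+/+) with its 95% interval, by role and in order of size; filled points have an adjusted p below 0.05 and the dashed line is the median of all genes tested, 0.19. Ccnd3 at 1.54, Gins2 at -0.74 and Cenpa at -0.87 are filled, and most mitosis intervals are wide and reach across 0.

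Among the G1 regulators, Ccnd3, the D-type cyclin D3, was the gene with the highest fold change of the set. Ccnd3 (GRCm38 chromosome 17, 47505051 to 47599691, plus strand) had 113, 65.1 and 94.95 TPM in Plcg2-/- libraries 1 to 3, against 33.3, 15.7 and 50.9 TPM in Plcg2+/+ libraries 1 to 3. The lowest Plcg2-/- library stood above the highest Plcg2+/+ library, and the difference held in each same-numbered pair. The log2 fold change of Ccnd3 was 1.54 ± 0.41 (SE; limma adjusted p = 0.0407). The call was kept under 6 of the 18 alternative settings. It was lost after median-of-ratios scaling (log2 fold change 1.33, adjusted p = 0.0584), quantile normalization (0.0672) and rescaling without mitochondrially encoded genes (0.0563). No filter (0.103), a constant prior variance (0.0529), the Y-linked level as a covariate (0.0927) and leaving out both libraries numbered 3 (0.0809) also ended it. Leaving out any single library other than Plcg2+/+ 3 ended it as well. The adjusted p was then 0.154, 0.0567 and 0.124 without Plcg2-/- libraries 1, 2 and 3, and 0.104 and 0.0714 without Plcg2+/+ libraries 1 and 2.

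The other D-type cyclins were far less abundant. Ccnd1, cyclin D1, had 6.29, 7.36 and 4.32 TPM in Plcg2-/- libraries and 2.81, 5.07 and 2.63 TPM in Plcg2+/+ libraries. The groups overlapped, because Plcg2+/+ 2 lay above Plcg2-/- 3, but each Plcg2-/- library exceeded its same-numbered partner. The log2 fold change of Ccnd1 was 0.65 ± 0.26 (SE; limma adjusted p = 0.12, and 0.0381 with the replicate block). Ccnd2, cyclin D2, had 7.86, 2.98 and 7.72 TPM in Plcg2-/- libraries and 3.68, 1.77 and 9.82 TPM in Plcg2+/+ libraries, a spread within each genotype that exceeded the difference between them (log2 fold change 0.38 ± 0.53 SE).

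Cdkn1a encodes p21, an inhibitor of cyclin-dependent kinases, and was the next highest by fold change after Ccnd3 among the G1 regulators. Cdkn1a (chromosome 17, 29090976 to 29100727, plus strand) had 163.5, 124 and 92.6 TPM in Plcg2-/- libraries, against 73.1, 83.5 and 57.4 TPM in Plcg2+/+ libraries. The groups did not overlap. Its log2 fold change of 0.80 ± 0.23 (SE) missed the threshold (limma adjusted p = 0.0507) and passed it with the replicate block (adjusted p = 0.0188). Cdkn1b, which encodes the inhibitor p27, had 25.4 to 30.8 TPM in Plcg2-/- libraries and 20.6 to 25.95 TPM in Plcg2+/+ libraries, with a log2 fold change of 0.21 ± 0.13 (SE). Cdkn2c, which encodes the Cdk4 and Cdk6 inhibitor p18, stood the other way: it had 4.00, 5.15 and 6.47 TPM in Plcg2-/- libraries and 6.48, 6.79 and 7.30 TPM in Plcg2+/+ libraries. Its groups touched without overlapping, and its log2 fold change was -0.36 ± 0.17 (SE; limma adjusted p = 0.181).

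The kinases of G1 overlapped between the genotypes. Cdk4 had 77.4 to 86.8 TPM in Plcg2-/- libraries and 64.5 to 79.7 TPM in Plcg2+/+ libraries (log2 fold change 0.23 ± 0.12 SE). Its sister kinase Cdk6 had 3.48 to 5.72 TPM in Plcg2-/- libraries and 4.13 to 4.96 TPM in Plcg2+/+ libraries, and Cdk2, the partner of cyclin E, had 20.0 to 26.5 TPM in Plcg2-/- libraries and 17.5 to 24.0 TPM in Plcg2+/+ libraries. None of the 3 passed the test under any alternative setting that included it. Their 95% intervals for the log2 fold change ran from -0.055 to 0.52 for Cdk4, from -0.46 to 0.42 for Cdk6 and from -0.30 to 0.48 for Cdk2.

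**Figure D3:**
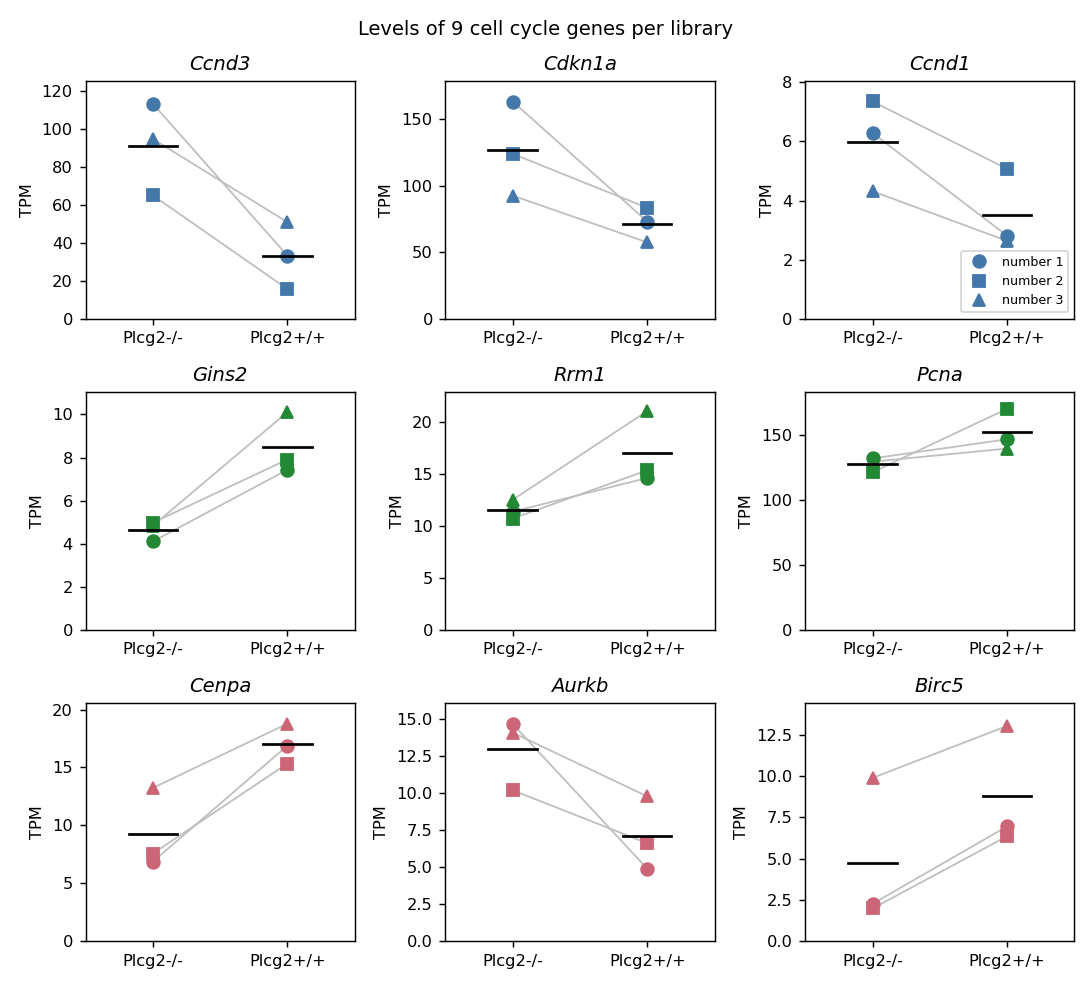
TPM (y axis) of 9 genes in the Plcg2-/- and Plcg2+/+ libraries, with same-numbered libraries joined by a line and the genotype mean as a bar. Ccnd3, Cdkn1a and Aurkb stand higher in all 3 Plcg2-/- libraries, Gins2, Rrm1, Pcna and Cenpa stand lower, and Ccnd1 and Birc5 overlap between genotypes while every joined line runs the same way.

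Among the replication genes, Gins2 fell and the rest of the machinery that opens and copies DNA showed small differences. Gins2, a subunit of the GINS complex that joins the MCM ring to form the active helicase, lies on chromosome 8 (120578633 to 120589304, minus strand). It had 4.10, 4.97 and 4.83 TPM in Plcg2-/- libraries, against 7.43, 7.91 and 10.1 TPM in Plcg2+/+ libraries. The groups were well apart. Gins2 fell by 0.74 on the log2 scale (SE 0.16; limma adjusted p = 0.0194), a call kept under 12 of the 18 alternative settings. It was lost without Plcg2-/- 1 (adjusted p = 0.0859), without Plcg2-/- 3 (0.0621) or without Plcg2+/+ 2 (0.0534). No filter (0.0538), the Y-linked level as a covariate (0.0623) and leaving out both libraries numbered 3 (0.104) also ended the call of Gins2. The annotation places 2 genes over it on the opposite strand, Gse1 at 8.74 to 9.05 TPM in Plcg2-/- libraries, against 5.72 to 8.75 TPM in Plcg2+/+ libraries, and Galnt2l at 0, 5.84 and 0 TPM in Plcg2-/- libraries, against 10.1, 16.8 and 12.0 TPM in Plcg2+/+ libraries; the labels do not say that counting used strand, so shared reads cannot be told apart.

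The enzymes that supply deoxynucleotides stood lower in Plcg2-/- libraries without passing the test. Rrm1, the large subunit of ribonucleotide reductase, had 11.4, 10.7 and 12.5 TPM in Plcg2-/- libraries, against 14.7, 15.4 and 21.1 TPM in Plcg2+/+ libraries. Its groups did not overlap, and its log2 fold change was -0.51 ± 0.16 (SE; limma adjusted p = 0.0636, 0.0348 with the replicate block and 0.0168 after median-of-ratios scaling). Rrm2, the small subunit whose level follows S phase, had 1.91, 1.38 and 4.05 TPM in Plcg2-/- libraries and 2.89, 3.62 and 6.62 TPM in Plcg2+/+ libraries. These overlapped, since Plcg2-/- 3 exceeded the lower Plcg2+/+ libraries, but each pair ran the same way (log2 fold change -0.66 ± 0.36 SE; limma adjusted p = 0.227, and 0.0499 with the replicate block). Tyms, thymidylate synthase, showed no such direction, with 2.38, 2.20 and 3.95 TPM in Plcg2-/- libraries and 2.25, 2.60 and 4.15 TPM in Plcg2+/+ libraries.

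Pcna, the sliding clamp of DNA polymerases and the most abundant replication gene of the set, had 132, 121 and 129 TPM in Plcg2-/- libraries, against 147, 170 and 139.5 TPM in Plcg2+/+ libraries. Every Plcg2-/- value was below every Plcg2+/+ value, by a small margin. The log2 fold change was -0.25 ± 0.11 (SE; limma adjusted p = 0.162), and Pcna passed the test only after quantile normalization (-0.52, adjusted p = 0.0327). The 6 MCM genes, which encode the helicase ring, spanned log2 fold changes of -0.27 for Mcm3 to 0.22 for Mcm4, 4 of them positive and 2 negative. Mcm3 had 15.5 to 19.2 TPM in Plcg2-/- libraries and 17.9 to 29.9 TPM in Plcg2+/+ libraries, and Mcm6 had 11.4 to 12.8 TPM in Plcg2-/- libraries and 8.99 to 13.2 TPM in Plcg2+/+ libraries. All 6 overlapped between genotypes, and none was called under any setting. The largest of their SEs was 0.22, for Mcm2, so a difference of the size seen for Ccnd3 would lie outside their 95% intervals.

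The factors that license origins and drive entry into S phase also overlapped between the genotypes. E2f1, the transcription factor of G1/S genes, had 15.6 to 19.0 TPM in Plcg2-/- libraries and 14.1 to 17.2 TPM in Plcg2+/+ libraries (log2 fold change 0.11 ± 0.13 SE). The cyclin E gene Ccne1 had 5.64 to 6.69 TPM in Plcg2-/- libraries and 5.42 to 6.01 TPM in Plcg2+/+ libraries, and its paralog Ccne2 had 0.917 to 0.970 TPM in Plcg2-/- libraries and 0.841 to 1.71 TPM in Plcg2+/+ libraries. Cdt1, which loads MCM at origins, had 22.5 to 27.1 TPM in Plcg2-/- libraries and 24.8 to 29.0 TPM in Plcg2+/+ libraries. Its loading partner Cdc6, which failed the filter, had 0.488, 1.12 and 0.761 TPM in Plcg2-/- libraries and 0.603, 0.291 and 1.20 TPM in Plcg2+/+ libraries, so that Cdt1 was present at many times the transcript level of Cdc6 in both genotypes.

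Among the 18 tested mitosis genes, Cenpa fell and no other gene was called; 14 of the 18 had a negative log2 fold change, and Aurkb, Mki67, Nusap1 and Ccnb1 a positive one. Cenpa, the histone H3 variant that marks centromeres, lies on chromosome 5 (30666777 to 30674830, plus strand). It had 6.84, 7.55 and 13.2 TPM in Plcg2-/- libraries, against 16.9, 15.3 and 18.8 TPM in Plcg2+/+ libraries. Even the highest Plcg2-/- library, number 3, stayed below the lowest Plcg2+/+ library. Cenpa fell by 0.87 on the log2 scale (SE 0.23; limma adjusted p = 0.0411). The call was kept under 10 of the 18 alternative settings. It was lost when any single library other than Plcg2-/- 3 was left out. The adjusted p was then 0.147 and 0.104 on leaving out Plcg2-/- libraries 1 and 2, and 0.115, 0.0935 and 0.091 on leaving out Plcg2+/+ libraries 1, 2 and 3. No filter (0.1), a constant prior variance (0.0523) and the Y-linked level as a covariate (0.0733) also ended the call.

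Aurkb and Birc5 encode 2 subunits of the same chromosomal passenger complex, the kinase Aurora B and survivin, and their transcripts stood on opposite sides. Aurkb had 14.7, 10.2 and 14.1 TPM in Plcg2-/- libraries, against 4.89, 6.62 and 9.79 TPM in Plcg2+/+ libraries, with no overlap. Its log2 fold change was 0.82 ± 0.25 (SE; limma adjusted p = 0.057, and 0.0449 with the replicate block). Birc5 had 2.25, 1.97 and 9.90 TPM in Plcg2-/- libraries, against 6.96, 6.36 and 13.1 TPM in Plcg2+/+ libraries. The 2 libraries numbered 3 stood far above the rest of their genotypes, and the groups overlapped through them. The log2 fold change of Birc5 was -0.99 ± 0.52 (SE; limma adjusted p = 0.212, 0.0332 with the replicate block, and 0.0389 at -1.30 without both libraries numbered 3). Incenp, the scaffold of the same complex and not one of the 44, had 27.0, 28.5 and 31.1 TPM in Plcg2-/- libraries and 34.8, 36.0 and 40.9 TPM in Plcg2+/+ libraries (log2 fold change -0.35 ± 0.11 SE; limma adjusted p = 0.067, and 0.0459 with the replicate block).

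Genes of the anaphase-promoting complex and of chromosome structure shared the pattern of Birc5. Ube2c, its ubiquitin-conjugating enzyme, had 4.08, 3.60 and 9.15 TPM in Plcg2-/- libraries, against 7.92, 5.47 and 17.1 TPM in Plcg2+/+ libraries. It was lower in each pair, by -0.49 to -0.83 on the log2 scale, although the groups overlapped. Its log2 fold change was -0.71 ± 0.44 (SE; limma adjusted p = 0.282), and with the replicate block the SE was 0.13 and the adjusted p 0.0202. Top2a, the topoisomerase that untangles sister chromatids, had 5.87, 2.32 and 12.8 TPM in Plcg2-/- libraries, against 10.6, 9.34 and 16.9 TPM in Plcg2+/+ libraries (log2 fold change -0.92 ± 0.50 SE; limma adjusted p = 0.221, and 0.0537 with the replicate block). Cdc20, the activator of the complex, had 2.53, 1.25 and 4.49 TPM in Plcg2-/- libraries and 2.72, 3.55 and 5.43 TPM in Plcg2+/+ libraries.

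Not all cyclins and kinases of mitosis were lower in Plcg2-/- libraries in every same-numbered pair. Ccnb2, cyclin B2, had 2.89, 1.11 and 7.02 TPM in Plcg2-/- libraries and 3.60, 3.37 and 10.3 TPM in Plcg2+/+ libraries, and Ccna2, cyclin A2, had 1.97, 1.18 and 4.40 TPM in Plcg2-/- libraries and 2.58, 3.84 and 5.28 TPM in Plcg2+/+ libraries. Both were lower in every pair. Ccnb1, cyclin B1, did not lean either way, with 6.72, 4.93 and 10.1 TPM in Plcg2-/- libraries and 6.94, 5.14 and 9.34 TPM in Plcg2+/+ libraries (log2 fold change 0.0027 ± 0.28 SE). Their partner Cdk1 had 14.5, 14.4 and 15.1 TPM in Plcg2-/- libraries and 20.5, 14.2 and 15.0 TPM in Plcg2+/+ libraries. Plk1, a kinase of mitotic entry, had 1.48, 1.80 and 4.45 TPM in Plcg2-/- libraries and 2.94, 4.21 and 4.98 TPM in Plcg2+/+ libraries, while Aurka, the Aurora kinase of the spindle poles, had 2.74 to 4.60 TPM in Plcg2-/- libraries and 3.07 to 4.12 TPM in Plcg2+/+ libraries.

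Genes of the spindle and its checkpoint completed the list. Bub1, a checkpoint kinase, had 0.719, 0.777 and 2.47 TPM in Plcg2-/- libraries and 3.28, 1.81 and 2.79 TPM in Plcg2+/+ libraries (log2 fold change -0.70 ± 0.33 SE; limma adjusted p = 0.168). Its relative Bub1b had 5.76 to 9.11 TPM in Plcg2-/- libraries and 6.93 to 8.37 TPM in Plcg2+/+ libraries, with a log2 fold change of -0.083. The spindle motor Kif11 had 1.07 to 2.41 TPM in Plcg2-/- libraries and 1.52 to 2.90 TPM in Plcg2+/+ libraries, and the spindle assembly factor Tpx2 had 4.23 to 7.07 TPM in Plcg2-/- libraries and 5.90 to 8.96 TPM in Plcg2+/+ libraries. Both were lower in every pair, whereas Nusap1, a microtubule-binding protein of the spindle, had 0.819 to 3.05 TPM in Plcg2-/- libraries and 0.862 to 2.59 TPM in Plcg2+/+ libraries. The centromere protein gene Cenpf, under the filter, had 0.230, 0.0993 and 0.567 TPM in Plcg2-/- libraries and 0.467, 0.434 and 0.833 TPM in Plcg2+/+ libraries, also lower in every pair.

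Mki67, the gene of the proliferation marker Ki-67, did not go with the majority. It had 9.53, 6.54 and 13.6 TPM in Plcg2-/- libraries, against 7.83, 4.67 and 10.1 TPM in Plcg2+/+ libraries. It was higher in each Plcg2-/- library than in its partner, by 0.25, 0.41 and 0.39 on the log2 scale, though the groups overlapped (log2 fold change 0.35 ± 0.32 SE; limma adjusted p = 0.455). With the replicate block its SE was 0.11 and its adjusted p 0.0739. Mki67 and Top2a, both abundant from S phase to mitosis, thus stood on opposite sides of 0, and the difference between their changes was not tested.

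Within the same-numbered pairs, 11 of the 18 mitosis genes, 5 of the 15 replication genes and 1 of the 9 G1 regulators were lower in Plcg2-/- in all 3 pairs, against 16.5% of all genes tested. Higher in all 3 pairs were 2 mitosis genes (Mki67 and Aurkb), 2 replication genes (Ccne1 and Mcm4) and 5 G1 regulators (Ccnd1, Ccnd3, Cdk4, Cdkn1a and Cdkn1b), against 45.3% of all genes. The median difference of the mitosis genes was -0.29, -0.58 and -0.16 in pairs 1, 2 and 3. For all genes tested it was 0.20, 0.20 and 0.14. The 18 genes are not replicates, the pairing was read from these same values, and these shares carry no test.

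**Figure D4:**
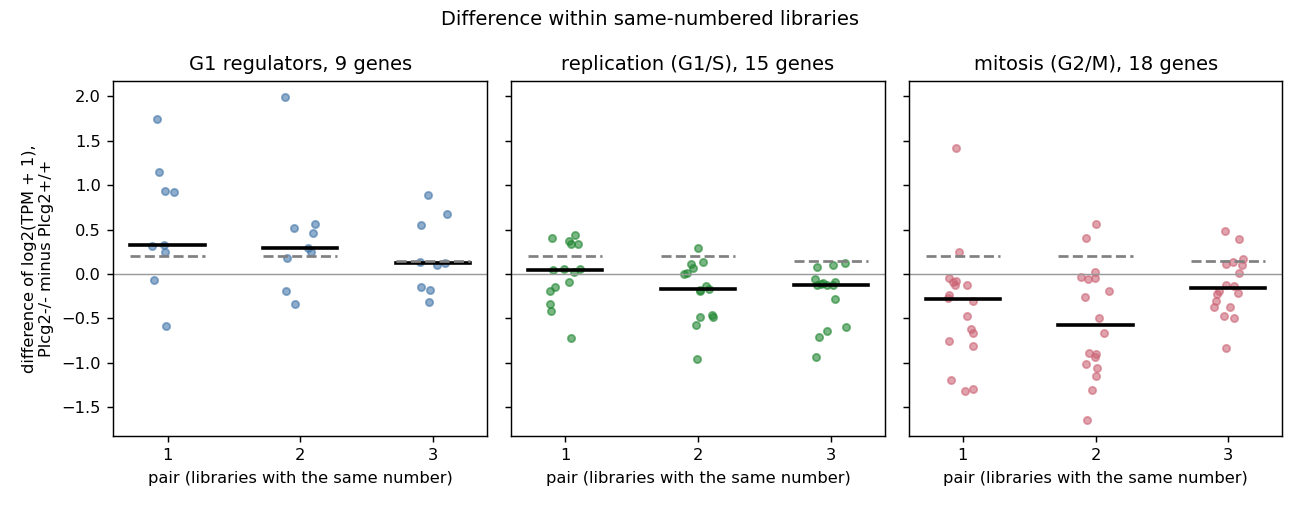
Difference of log2(TPM + 1) between the Plcg2-/- and the Plcg2+/+ library of the same number (y axis) for pairs 1 to 3 (x axis), with a point per gene, the median of the list as a solid bar and the median of all genes tested as a dashed bar. In the mitosis panel the solid bars lie at -0.29, -0.58 and -0.16, below the dashed bars in all 3 pairs; in the panel of G1 regulators they lie at 0.33, 0.29 and 0.12.

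The mitosis genes varied more between libraries of 1 genotype than the rest of the set, and did so in step. Their median SD within a genotype was 0.47 on the log2 scale, against 0.19 for replication genes, 0.22 for G1 regulators and 0.21 for all genes tested. Library 3 held the highest value of its genotype in both genotypes for 15 of 18 mitosis genes (83.3%), 6 of 15 replication genes (40%) and 3 of 9 G1 regulators (33.3%), against 17.7% of all genes. The exceptions among the mitosis genes were Aurkb, highest in Plcg2-/- 1, and Cdk1 and Bub1, highest in Plcg2+/+ 1. The replication genes that took part were Rrm1, Rrm2, Tyms, Mcm2, Mcm4 and Mcm5. Averaged over the 18 mitosis genes, the departure from the genotype mean was -0.17, -0.42 and 0.58 in Plcg2-/- libraries 1 to 3 and -0.14, -0.23 and 0.37 in Plcg2+/+ libraries 1 to 3.

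**Figure D5:**
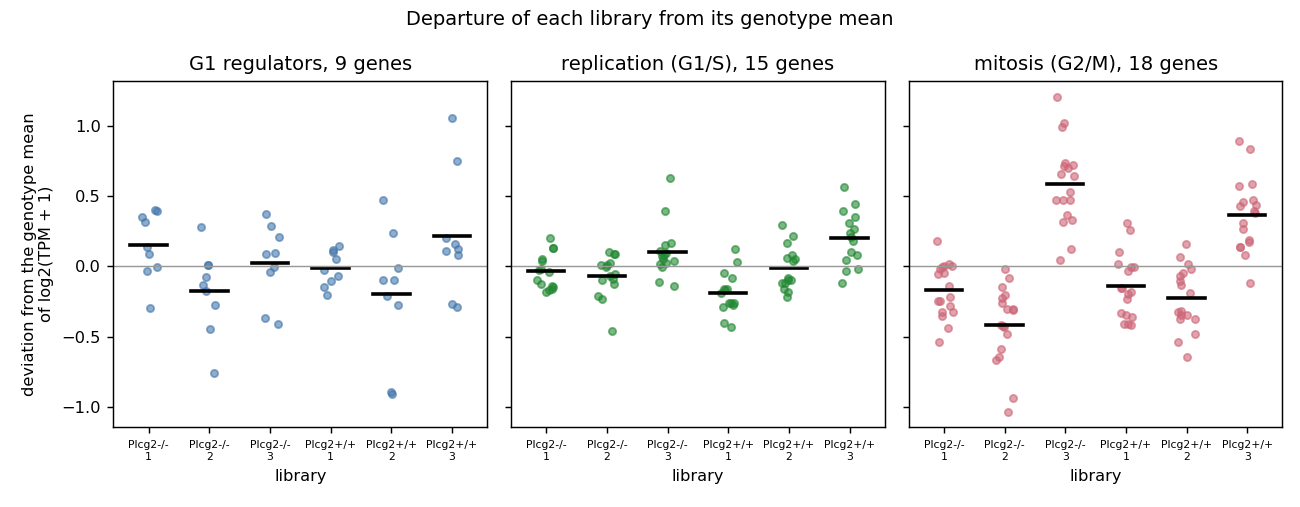
Departure of each gene in each library from the mean of its genotype (y axis, log2(TPM + 1)), with 1 panel per role and the mean over genes as a bar. In the mitosis panel both libraries numbered 3 stand above the others, at mean departures of 0.58 and 0.37, while the replication genes stay at 0.11 and 0.20 there.

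Some other measures also moved with library number 3, and some did not. The summed lymphocyte and neutrophil markers were 30.2, 24.2 and 47.1 TPM in Plcg2-/- libraries and 34.6, 19.2 and 75.3 TPM in Plcg2+/+ libraries; 1 of the 12, the neutrophil and monocyte gene S100a8, made up nearly all of it, 10 were under 1 TPM in every library of a genotype, and their part in the result was not tested. The summed microglia and macrophage markers were lowest in libraries 3. They were 8433, 11040 and 7223 TPM in Plcg2-/- libraries and 6917, 8317 and 6037 TPM in Plcg2+/+ libraries. Tyrobp, the largest of them, was lowest in Plcg2-/- 3 (2419 TPM) but highest in Plcg2+/+ 3 (2119 TPM). The summed astrocyte markers were 57.9, 43.7 and 60.1 TPM in Plcg2-/- libraries and 30.5, 37.8 and 60.9 TPM in Plcg2+/+ libraries, highest in library 3 of both genotypes, and 4 of the 10 were under 1 TPM in every library of a genotype. The summed fibroblast, pericyte and endothelial markers followed genotype instead, at 18.7 to 25.8 TPM in Plcg2-/- libraries and 7.76 to 9.54 TPM in Plcg2+/+ libraries; 9 of the 11 were under 1 TPM throughout a genotype, and the endothelial receptor gene Kdr, the only one tested, made up most of the sum (log2 fold change 1.56 ± 0.21 SE; limma adjusted p = 0.00477). The summed oligodendrocyte lineage markers were highest in library 2 of both genotypes, at 127 TPM (Plcg2-/-) and 138 TPM (Plcg2+/+). The summed neuron markers were highest in Plcg2-/- 3 (11.6 TPM) and in Plcg2+/+ 2 (14.5 TPM). The part of these markers in the results was not tested. Y-linked transcripts did not follow the number: they summed to 0.994 TPM in Plcg2-/- 3, against 112 TPM in Plcg2+/+ 3. Without both of them, 2 of 42 genes were called lower (Cenpa, limma adjusted p = 0.0395, and Birc5) and none higher. Of all 12652 genes, 275 were then called lower and 507 higher. The median log2 fold change of the mitosis genes was -0.52 without them.

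The ratio of mitosis to replication transcripts within a library showed no separation of the genotypes. The 18 tested mitosis genes and Cenpf summed to 90.2, 73.4 and 148 TPM in Plcg2-/- libraries, against 118, 106 and 167 TPM in Plcg2+/+ libraries. The replication genes summed to 262.5, 247 and 265 TPM in Plcg2-/- libraries, against 274, 306 and 307 TPM in Plcg2+/+ libraries. Every Plcg2-/- sum of these genes lay below every Plcg2+/+ sum, and Pcna gave the largest part. Without Pcna the sums of the replication genes overlapped. They were 130.6, 125.7 and 135.5 TPM in Plcg2-/- libraries and 127.7, 135.8 and 167.3 TPM in Plcg2+/+ libraries. With Pcna, the ratio of the sums was 0.344, 0.297 and 0.557 in Plcg2-/- libraries and 0.429, 0.346 and 0.543 in Plcg2+/+ libraries. The genotype means of this ratio were 0.399 ± 0.139 and 0.439 ± 0.0988 (SD, n = 3 each). The ratio was thus lower in Plcg2-/- in pairs 1 and 2 and higher in pair 3, and the spread within a genotype exceeded the difference between genotypes. Without Pcna the ratio was 0.691, 0.584 and 1.09 in Plcg2-/- libraries and 0.921, 0.780 and 0.996 in Plcg2+/+ libraries. The genotype difference of the log2 ratio with Pcna was -0.17. Leaving out 1 library gave -0.43 (without Plcg2-/- 3) to 0.019 (without Plcg2-/- 2).

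Further lists of genes with related roles, 170 genes outside the set, showed how far the pattern reached. Of 53 tested further mitosis genes, 1 was called higher and none lower (limma), against 15.6% and 5.31% of all genes. At an unadjusted p below 0.05, 3 were higher and 4 lower, against 3604 higher and 1155 lower of all 12652 genes. With the replicate block 2 were called higher and 5 lower, against 19.6% and 6.44%. A negative log2 fold change was found for 43 of the 53, against 32.5% of all genes, and their median was -0.26. The 1 called gene was Pttg1, securin, the protein that restrains separase, with 175, 146 and 129 TPM in Plcg2-/- libraries and 52.8, 41.2 and 75.2 TPM in Plcg2+/+ libraries (log2 fold change 1.43 ± 0.23 SE; limma adjusted p = 0.00831), a call kept under all 18 alternative settings. Library 3 was the highest of both genotypes for 33 of these 53 genes (62.3%). Among the lowest p-values of this list, the cyclin F gene Ccnf had a log2 fold change of -0.81 ± 0.25 (SE; limma adjusted p = 0.0625) and the condensin II gene Ncapg2 one of 0.39 ± 0.12 (SE; limma adjusted p = 0.0627).

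Of 46 tested further replication genes, 3 were called higher and 1 lower, against 15.6% and 5.31% of all genes, and the median was 0.14, beside 0.19 for all genes. The clamp loader genes Rfc1 and Rfc2 and the polymerase alpha subunit gene Pola2 rose, with log2 fold changes of 0.67 ± 0.12, 0.48 ± 0.13 and 0.41 ± 0.11 (SE; limma adjusted p = 0.0116, 0.0418 and 0.0441). Cdc7, the kinase that fires origins, fell, with 2.75, 2.26 and 2.67 TPM in Plcg2-/- libraries and 3.69, 5.03 and 4.26 TPM in Plcg2+/+ libraries (limma adjusted p = 0.049, and 0.0673 with the replicate block). After median-of-ratios scaling the calls in this list were 1 higher, Rfc1, and 5 lower, against 975 higher and 993 lower of all 12652 genes. The median of the list was then -0.033, beside -0.0045 for all genes, so the direction of the list depended on the scaling. Rfc1 kept its call under 14 of the 18 alternative settings and Rfc2, Pola2 and Cdc7 under 4, 5 and 6 of them; leaving out Plcg2-/- 1, Plcg2-/- 3 or Plcg2+/+ 1 ended that of Rfc1 (adjusted p of 0.0622, 0.0518 and 0.0509).

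Of 32 tested regulators of the RB, E2F and DREAM system, 4 were called higher and none lower (limma), and 8 higher and 1 lower with the replicate block. Of all genes, 15.6% were called higher and 5.31% lower, or 19.6% and 6.44% with the block. At an unadjusted p below 0.05 without the block, 9 were higher and 1 lower, against 3604 and 1155 of all 12652 genes. Cdkn2a, which encodes the tumour suppressors p16Ink4a and p19Arf, had 172.5, 132 and 155 TPM in Plcg2-/- libraries, against 47.6, 31.1 and 68.3 TPM in Plcg2+/+ libraries. It rose, with a log2 fold change of 1.69 ± 0.27 (SE; limma adjusted p = 0.00852), a larger change than that of any of the 44 genes; the call was lost without Plcg2-/- 1 (adjusted p = 0.0511) and kept under the other 17 settings. Rbl1, which encodes the DREAM subunit p107, had 17.4, 10.6 and 16.1 TPM in Plcg2-/- libraries, against 7.78, 5.87 and 7.79 TPM in Plcg2+/+ libraries, and rose by 0.93 ± 0.21 (SE; limma adjusted p = 0.023). The cyclin G1 gene Ccng1 rose by 0.75 ± 0.19 (SE; limma adjusted p = 0.0351), and Skp2, which targets p27 for degradation, by 0.50 ± 0.14 (SE; limma adjusted p = 0.0415). The calls of Rbl1, Ccng1 and Skp2 were kept under 11, 8 and 4 of the 18 settings; Rbl1 lost its own on leaving out Plcg2-/- 1 or 3 or Plcg2+/+ 1 or 2, with adjusted p-values of 0.0674 to 0.0993, and Ccng1 and Skp2 theirs after median-of-ratios scaling (adjusted p = 0.0652 and 0.204).

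The last list held targets of the transcription factor p53 and Trp53 too, and left out Cdkn1a as a gene of the set. Of its 18 tested genes, 3 were called higher and 4 lower, against 15.6% and 5.31% of all genes. Trp53, the p53 gene itself, rose, with 75.2, 74.0 and 76.8 TPM in Plcg2-/- libraries and 48.8, 42.6 and 53.6 TPM in Plcg2+/+ libraries (log2 fold change 0.64 ± 0.11 SE; limma adjusted p = 0.0123); the call was lost after quantile normalization (log2 fold change 0.33, adjusted p = 0.0511), without both libraries numbered 3 (0.0573) and without Plcg2-/- 1 (0.0569) or Plcg2-/- 3 (0.0507). The polo-like kinase gene Plk2 fell, with 23.3, 28.6 and 23.5 TPM in Plcg2-/- libraries and 133, 117 and 87.5 TPM in Plcg2+/+ libraries (log2 fold change -2.11 ± 0.18 SE; limma adjusted p = 0.00104). Its relative Plk3 and the Akt repressor gene Phlda3 fell as well, with log2 fold changes of -1.72 ± 0.22 and -1.46 ± 0.20 (SE; limma adjusted p = 0.00393 and 0.00518). The calls of Plk2, Plk3 and Phlda3 were kept under all 18 alternative settings. The remaining called genes, named after their values were seen, were Sesn2 and Fas, which rose, and Mdm2, which fell.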

How the data were processed

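The values deposited by the authors are TPM per gene, in 1 table for the 6 libraries; each column sums to 1000000 and keeps no depth. The tools listed per the submitters' processing notes are Salmon 1.3.0, R 4.0.4 and DESeq2 1.30.1, with the build GRCm38.p6. The sources used here name neither the annotation nor the step behind the TPM values. No count model was fitted.

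The 12652 genes that averaged 1 TPM or more over the libraries were tested on log2(TPM + 1), which understates the change of low genes, by limma 3.58.1 under R 4.3.3 (a two-sided test, prior variance following the mean, residual degrees of freedom 4, prior 2.97). Adjustment was by Benjamini-Hochberg over all genes tested, with a threshold of 0.05. The SE is the moderated one. The test was checked on simulated data. Tables and plots used Python 3.11.15, pandas 2.3.3, numpy 2.4.6 and matplotlib 3.10.9. Gene positions are from GENCODE M21 (GRCm38), promoter windows from RefSeq (GRCm38.p6).

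Deviations from the genotype means correlated at 0.295, 0.193 and 0.147 between same-numbered libraries, all above 0.1, so the numbers of the titles were taken to pair the samples; the fit without the block stayed the main one, as the labels name no shared litter. Named were all 44 genes and, of each of 4 further lists, up to 4 tested genes with the smallest p, Plcg2, and genes a result turned on. The genes and lists were chosen with earlier results of these data known. Alternatives were pseudocounts of 0.5 and 0.1, a filter at 5 TPM or none, 3 other scalings, the replicate block, a constant prior variance and each library left out. A Y-linked covariate and leaving out both libraries numbered 3 were added after seeing the data. Copies named as pseudogenes of Ccnb1, Ccnb2, Ccnd3, Pcna and Tyms had at most 1.42 TPM in any library, and reads shared with copies could not be separated here.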

Additional observations from a re-analysis of the deposited data

How the results depend on the processing

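Against 1 gene of the set called higher and 2 lower, the counts were 2 and 2 with a pseudocount of 0.1, 0 and 0 with no filter, 3 and 3 with a mean TPM of at least 5, 0 higher and 3 lower under median-of-ratios scaling, 0 higher and 4 lower under quantile normalization, 0 higher and 3 lower after rescaling without mitochondrially encoded genes, and 0 higher and 1 lower with a constant prior variance. The replicate block gave 4 higher and 6 lower, and with median-of-ratios scaling 2 higher and 7 lower; apart from the genes named with it above and Top2a under that scaling, the block changed no call of the 42 genes. The Y-linked covariate gave 0 lower and 1 higher, Aurkb in place of Ccnd3, and leaving out both libraries numbered 3 gave 0 higher and 2 lower. Leaving out 1 library gave 0 to 2 higher and 0 to 2 lower. Over the whole table, 2643 genes were called, against 1726 with no filter, 1217 with the Y-linked covariate, 782 without both libraries numbered 3 and 835 to 2750 with 1 library left out. Of these calls 74.6% were higher, against 49.5% under median-of-ratios scaling, 48.2% under quantile normalization and 60.4% after rescaling without mitochondrially encoded genes. The median of the G1 regulators was 0.0211 after median-of-ratios scaling (the same with the block) and -0.0194 under quantile normalization; that of the replication genes was -0.291 under the first of these (the same with the block). Of 741 values of single genes under the alternatives, 689 kept their direction and side of the threshold or changed sign uncalled (61 values of 16 genes), 26 lost and 26 gained a call, and none that was called reversed; the causes were not tested.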
